A study of Homo sapiens with 10 samples.

Results

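The genes described here encode the solute carriers that move inorganic ions and metals across membranes: bicarbonate, sodium, calcium, chloride, phosphate, sulfate, zinc, copper, iron, manganese and magnesium. They were taken as every probe set of the array whose platform annotation gives exactly 1 gene symbol from the families SLC4A, SLC8A, SLC9A, SLC11A, SLC12A, SLC20A, SLC24A, SLC26A, SLC30A, SLC31A, SLC34A, SLC39A, SLC40A and SLC41A. This gave 180 of 54675 probe sets, which stand for 75 genes of 19775 genes with a probe set of a single symbol. Expression was compared between 2 states of IMR90, a strain of diploid fibroblasts from human fetal lung that carries no engineered change here. Proliferating cells at 28 population doublings gave 5 arrays. Senescent cells at 90 population doublings, passaged to growth arrest and then kept in the dish for 2 weeks, gave the other 5. Both groups were grown in medium with 10% serum at 3% oxygen, without drug or transgene, so that age in culture and growth state differ together. Whether the 5 arrays of a state stem from independent cultures is not stated in the labels, and the p-values therefore reflect the scatter of these arrays, which may be technical.

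Zinc is carried by a pair of opposed families. SLC30A proteins (ZnT) move zinc out of the cytosol, to the outside or into organelles, and SLC39A proteins (ZIP) move it into the cytosol. Copper enters through SLC31A proteins, iron through SLC11A2 and leaves through SLC40A1 (ferroportin), and SLC41A proteins carry magnesium. The remaining families couple sodium, potassium, protons, chloride, bicarbonate, calcium, phosphate or sulfate to each other, and set cell pH, cell volume and calcium in most tissues.

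Of the 75 genes, 52 had a probe set above the filter on low values, which asks that a value exceed the 40th percentile of its array in 5 or more of the 10 samples. For these 52 genes the probe set with the highest mean was tested. In senescent cells 30 genes rose and 5 fell past limma's adjusted threshold of 0.05, and 17 did not pass. Among all 12909 genes tested, 31.0% were called higher and 30.3% lower, whereas the carriers had 57.7% higher and 9.62% lower. Differences of at least 2-fold, which is 1 on the log2 scale, were seen for 15 carrier genes, all of them higher, or 28.8% of the 52. Over all genes 10.0% were called higher and 10.2% lower by at least 2-fold. The median difference was 0.36 for the carriers and 0.04 for all genes (log2). The 5 values of each group did not overlap for 34 of the 52 carrier genes, against 51.8% of all genes. Each of these 34 has an exact permutation p of 0.0079, two-sided, which is the smallest value possible with 5 against 5 arrays. Groups without overlap always give this value, so it adds nothing to the count. These are bulk samples, in which fewer cells with a transcript and less of it per cell cannot be told apart.

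These counts move with the scaling. With arrays centred on 22 housekeeping genes the median difference of all genes moved by -0.16, and 26 carrier genes were higher and 11 lower, against 22.8% and 40.7% of all genes. The share of all calls that were higher went from 50.6% to 35.9%. The carrier median was then 0.20 against -0.13 for all genes, and none of the 35 called genes changed sign under the scalings tried.

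**Figure D1:**
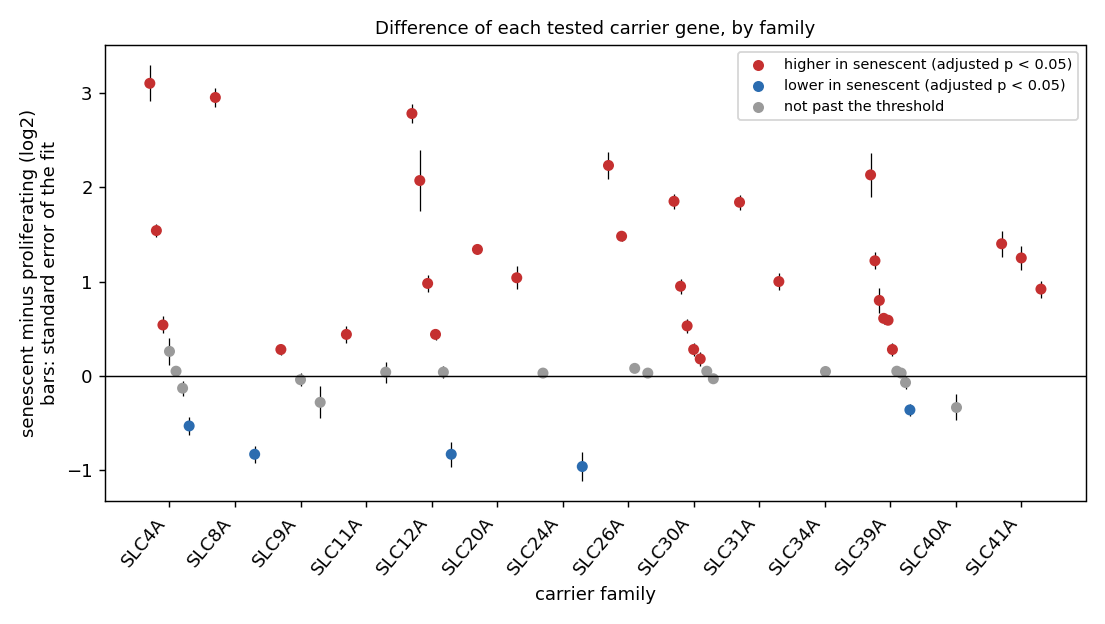
Senescent minus proliferating difference (log2, vertical axis) of the 52 tested carrier genes, grouped by family along the horizontal axis. Bars are standard errors of the fit (5 arrays per group), and colour marks genes that passed limma's adjusted threshold. Points reach 3.10 above zero (SLC4A11) and -0.96 below it (SLC24A1), and with housekeeping centring 26 instead of 30 are called higher and 11 instead of 5 lower.

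Array medians lay between 3.05 and 3.12, and correlations over tested genes were 0.993 to 0.998 within a group. All 12 fibroblast markers lay above the array's 60th percentile (4.64 to 4.77) on every array, with summed levels of 16.93 to 17.16 for the proliferating and 16.90 to 17.02 for the senescent state (log2). All 6 leukocyte markers with a usable probe set, 6 of 10 epithelial and 6 of 8 endothelial markers lay below it on every array. Summed levels were 8.43 to 8.59 against 8.19 to 8.43 for epithelial, 9.69 to 10.11 against 10.48 to 10.70 for endothelial, 5.19 to 5.22 against 5.20 to 5.30 for leukocyte and 12.50 to 13.01 against 13.27 to 13.45 for smooth muscle markers. The endothelial PECAM1, VWF and CDH5 and the epithelial CDH1 were among those below the percentile. Other markers of these lists had signal and differed between the states. Epithelial EPCAM went from 6.49 ± 0.06 to 4.18 ± 0.40 and KRT19 from 5.41 ± 0.21 to 4.15 ± 0.61, while SFTPC went from 7.43 ± 0.17 to 7.77 ± 0.13. Endothelial TEK went from 9.90 ± 0.18 to 10.52 ± 0.12 and ROBO4 from 5.04 ± 0.28 to 4.34 ± 0.31 (SD, n = 5 each), without overlap in any of these 5. Of the 6 smooth muscle markers 4 lay above the percentile on every array. The tested ones went both ways. ACTG2 went from 12.75 ± 0.19 to 13.28 ± 0.08 and LMOD1 from 4.81 ± 0.34 to 5.54 ± 0.41. MYH11 went from 5.94 ± 0.46 to 5.22 ± 0.20 (SD, n = 5 each), and CNN1 and SMTN did not pass. Of the 12 fibroblast markers 3 were called higher and 4 lower, against 31.0% and 30.3% of all genes. LUM went from 10.45 ± 0.23 to 11.94 ± 0.09 and FAP from 9.33 ± 0.37 to 7.64 ± 0.23 (SD, n = 5 each), both without overlap. The part of these lists in the carrier differences was not tested. The difference between 3' and 5' control probe sets of ACTB, a sign of RNA integrity, averaged 2.07 ± 0.14 for the proliferating and 2.32 ± 0.10 for the senescent state (SD, n = 5, exact permutation p = 0.0079). With this difference as a covariate 27 carrier genes rose and 6 fell, against 23.5% and 25.9% of all genes. The control did not overlap between the states (1.85 to 2.19 for proliferating, 2.24 to 2.47 for senescent arrays). That fit therefore cannot fully tell RNA integrity and state apart.

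Below, values are deposited log2 values, given in the order of arrays 1 to 5 of each group, or as mean ± SD over the 5 proliferating and the 5 senescent arrays. Differences are senescent minus proliferating on the log2 scale. GCRMA values are not scaled per length, so levels of different genes were not compared. Counts within single families are a description, to be read beside the 31.0% of all genes called higher and 30.3% called lower.

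Zinc exporters rose in part, in a number that depends on the scaling. Of 10 SLC30A genes on the array 7 were tested, 5 rose and none fell, with a family median of 0.28. Among all genes 31.0% were called higher and 30.3% lower. The SLC30A5 and SLC30A6 calls were lost with housekeeping centring. SLC30A4 (ZnT4), which loads zinc into vesicles, read 8.31, 8.48, 8.41, 8.47 and 8.16 on the proliferating arrays and 10.35, 10.15, 10.36, 10.18 and 10.04 on the senescent arrays. The groups stood apart on every array. The difference was 1.85 (SE 0.08, 3.61-fold, limma's adjusted p = 2.1e-08), and its second probe set gave 1.62, although the mean of its 3 probe sets was 1.23. SLC30A1 (ZnT1), the exporter of the plasma membrane, went from 9.74 ± 0.14 to 10.69 ± 0.11, a difference of 0.95 (SE 0.08, 1.93-fold, limma's adjusted p = 1.8e-06), again without overlap. Its other probe set rose by 0.77.

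Other exporters serve the early secretory pathway. SLC30A7 (ZnT7) went from 9.65 ± 0.15 to 10.18 ± 0.03, by 0.53 (SE 0.07, limma's adjusted p = 7.1e-05). Its other probe sets differed by 0.50 (adjusted p = 3.0e-05) and by -0.21, which did not pass (adjusted p = 0.17; limma over probe sets). The mean of its 3 probe sets was 0.27. SLC30A5 (ZnT5) and its partner SLC30A6 (ZnT6), which form a heterodimer in the Golgi, differed by 0.28 (adjusted p = 0.0053, limma) and 0.18 (adjusted p = 0.04, limma). The SLC30A6 groups overlapped, with an exact permutation p of 0.056, and its call was lost without a filter and when its probe sets were averaged (0.11). Another SLC30A6 probe set went from 9.52 ± 0.06 to 9.85 ± 0.06 without overlap, by 0.33 (adjusted p = 1.5e-04, limma over probe sets). The last, dim in both groups, differed by -0.16 and did not pass (adjusted p = 0.35, limma over probe sets). With housekeeping centring SLC30A5 was at 0.11 and SLC30A6 at 0.01 (adjusted p = 0.26 and 0.9, limma). SLC30A5 was also lost with the ACTB covariate (0.23, adjusted p = 0.11, limma) and stood at 0.52 without shared probe sets, and the SLC30A6 call was also lost without any 1 of proliferating 1, 3 and 5 or senescent 4 and 5. SLC30A9, known as a mitochondrial zinc carrier, had 11.07 ± 0.10 and 11.05 ± 0.04 and did not pass (adjusted p = 0.67, limma), but did with housekeeping centring (-0.19, adjusted p = 0.011). SLC30A10, a manganese exporter, stayed below the 60th percentile on all arrays.

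SLC30A1 is a textbook target of the zinc sensor MTF1, which binds metal response elements, so the bases before the starts of the 2 exporters with the largest rise in this family are shown. The sequences are RefSeq's, build GRCh38.p14, the 250 bases before the annotated start, 5′ to 3′ on the gene's strand, which is the minus strand for both: chr1:211579162-211579411 for SLC30A1 and chr15:45522756-45523005 for SLC30A4. Capitals mark matches to the core of the element, searched on both strands as TGCACNC or TGCGCNC.
SLC30A1: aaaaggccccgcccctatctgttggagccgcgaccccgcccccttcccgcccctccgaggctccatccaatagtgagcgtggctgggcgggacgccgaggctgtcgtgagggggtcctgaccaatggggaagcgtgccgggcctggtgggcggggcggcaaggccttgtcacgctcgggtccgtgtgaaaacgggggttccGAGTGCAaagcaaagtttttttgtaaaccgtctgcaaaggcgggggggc
SLC30A4: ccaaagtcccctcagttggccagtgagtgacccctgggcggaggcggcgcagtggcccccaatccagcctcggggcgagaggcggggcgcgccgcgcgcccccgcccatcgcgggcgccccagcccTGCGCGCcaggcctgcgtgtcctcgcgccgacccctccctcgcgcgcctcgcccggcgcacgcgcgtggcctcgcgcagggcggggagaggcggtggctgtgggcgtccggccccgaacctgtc
Each window held 1 match, which lay on the opposite strand and 43 bases before the start in SLC30A1 and on the gene's own strand and 118 bases before it in SLC30A4. Such a short core is common. It occurred in 24.8% of all 35116 windows of this length and in 26.9% of the 78 windows of tested carrier genes. By gene, with any start counted, it was present for 10 of 26 higher, 3 of 4 lower and 6 of 16 uncalled carriers in the table. That is 41.3% of the 46 tested carriers in the table, against 28.5% of all 27305 genes in it, and genes with more starts have more windows to hold it. A match describes these letters and does not show binding.

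Zinc importers rose in part. Of 14 SLC39A genes on the array 10 were tested, 6 rose and 1 fell, with a family median of 0.44. SLC39A8 (ZIP8), which brings in zinc and manganese, read 2.95, 2.84, 2.94, 2.89 and 2.87 on the proliferating arrays and 5.68, 4.84, 5.51, 4.33 and 4.79 on the senescent arrays. It lay near the floor in every proliferating sample and spread widely between senescent ones. The difference was 2.13 (SE 0.23, 4.39-fold, limma's adjusted p = 1.5e-05), and since the proliferating values lay below the 60th percentile its size depends on the background correction. Its other probe sets rose by 1.64 and 0.40, and the mean of the 3 gave 1.39.

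SLC39A11 (ZIP11), an intracellular member, read 8.31, 8.24, 8.59, 8.34 and 8.39 on the proliferating arrays and 9.73, 9.52, 9.72, 9.62 and 9.35 on the senescent arrays. The groups were fully separate, with a difference of 1.22 (SE 0.09, 2.32-fold, limma's adjusted p = 7.9e-07), from a single tested probe set. SLC39A13 (ZIP13), whose loss causes a connective tissue disorder, went from 4.29 ± 0.18 to 5.08 ± 0.25, by 0.80 (SE 0.13, limma's adjusted p = 2.9e-04), and lay below the 60th percentile in proliferating cells. SLC39A9 in the Golgi and SLC39A7 in the endoplasmic reticulum rose by 0.61 and 0.59, with adjusted p = 4.8e-06 and 6.9e-07 (limma). SLC39A6 of the plasma membrane rose by 0.28 (adjusted p = 0.0037, limma), and its 3 other probe sets by 0.43 to 0.48. The SLC39A6 call was lost with housekeeping centring (0.12, adjusted p = 0.21) and with the ACTB covariate (0.14, adjusted p = 0.20; limma).

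SLC39A14 (ZIP14), the closest relative of SLC39A8 and likewise a carrier of manganese, iron and zinc, was the tested member called lower. It read 11.35, 11.30, 11.41, 11.45 and 11.15 on the proliferating arrays and 11.06, 11.01, 11.00, 10.87 and 10.94 on the senescent arrays. Every senescent value lay below every proliferating one. SLC39A14 fell by 0.36 (SE 0.06, limma's adjusted p = 5.9e-04), and a second, dim probe set by 0.76. SLC39A10 and SLC39A1, both at the plasma membrane, had differences of -0.07 and 0.05 that did not pass (adjusted p = 0.38 and 0.39, limma). With housekeeping centring SLC39A10 was at -0.23 and passed (adjusted p = 0.047, limma).

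**Figure D2:**
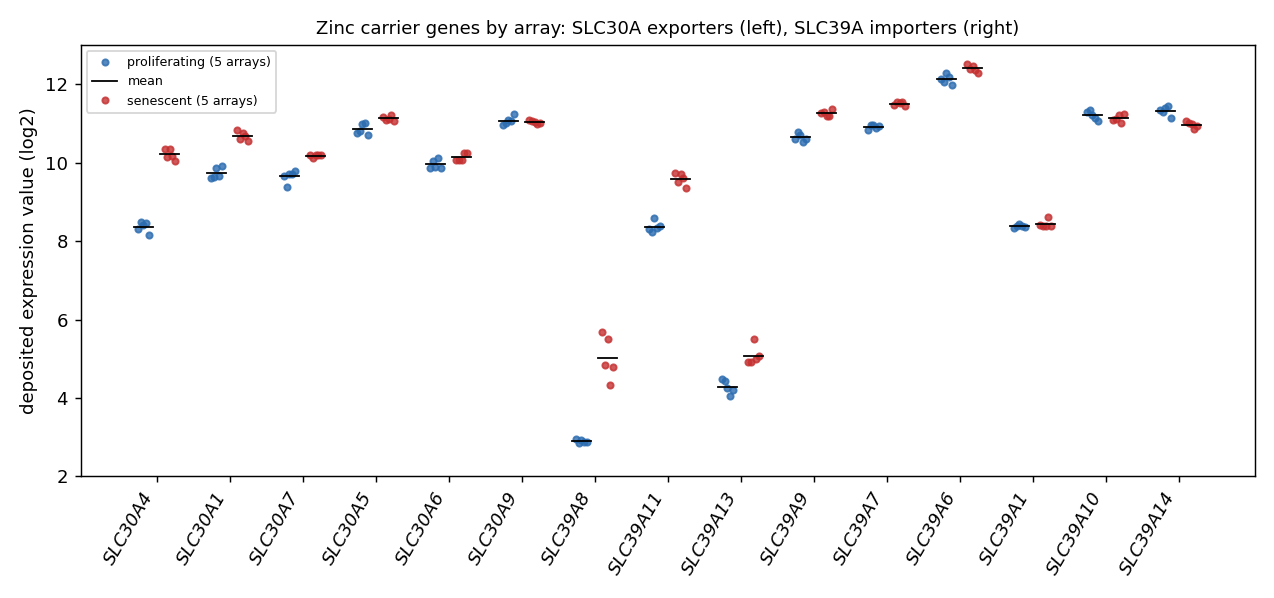
Deposited log2 value (vertical axis) of each zinc carrier gene above the 60th percentile on at least 1 array, with 5 proliferating (blue) and 5 senescent (red) arrays and the mean of each group as a line. Exporters stand on the left and importers on the right, each ordered by difference, from SLC30A4 (1.85) to SLC30A9 (-0.03) and from SLC39A8 (2.13) to SLC39A14 (-0.36).

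Both copper carriers rose. SLC31A2 (CTR2), which resides in late endosomes and lysosomes, read 6.40, 6.24, 6.57, 6.58 and 6.35 on the proliferating arrays and 8.28, 8.36, 8.13, 8.21 and 8.39 on the senescent arrays. No value of a group came near the other group, and the difference was 1.84 (SE 0.08, 3.59-fold, limma's adjusted p = 1.6e-08). SLC31A2 had a single tested probe set. SLC31A1 (CTR1), the high-affinity importer, read 10.36, 10.19, 10.60, 10.63 and 10.29 on the proliferating arrays and 11.29, 11.39, 11.46, 11.37 and 11.54 on the senescent arrays. It rose by 1.00 (SE 0.09, limma's adjusted p = 5.4e-06), just under the 2-fold line, and its other probe sets rose by 1.32 and 1.19. These genes lie on chromosome 9 with only FKBP15 between them among protein-coding genes in RefSeq.

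Of the 3 iron carriers tested, SLC11A2 rose and SLC11A1 and SLC40A1 did not pass. SLC11A2 (DMT1), the proton-coupled importer of ferrous iron, read 9.42, 9.54, 9.30, 9.32 and 9.41 on the proliferating arrays and 9.72, 10.00, 10.05, 9.81 and 9.61 on the senescent arrays. It rose by 0.44 (SE 0.09, limma's adjusted p = 0.0016) without overlap. Its probe sets differed in size, since 2 others rose by 0.96 and 1.03 (adjusted p = 2.9e-06 and 1.7e-04, limma over probe sets) and another by 0.42. The last, dim in both groups, differed by -0.17 and did not pass (adjusted p = 0.24, limma over probe sets). Without probe sets marked as shared between transcripts the gene stood at 0.96, and with housekeeping centring at 0.28. SLC40A1, the exporter, had 5.30 ± 0.31 and 4.97 ± 0.15. Its difference of -0.33 did not pass (limma's adjusted p = 0.072), but it did with housekeeping centring (-0.49, adjusted p = 0.017), with array weights (-0.46, adjusted p = 0.0083), without proliferating 5 (-0.42, adjusted p = 0.018) and with 4 against 4 arrays (-0.43, adjusted p = 0.047; limma throughout). SLC11A1, the phagocyte relative of SLC11A2, had a difference of 0.04.

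All 3 magnesium carriers rose. SLC41A2 read 6.77, 6.96, 7.43, 7.24 and 6.71 on the proliferating arrays and 8.66, 8.38, 8.46, 8.36 and 8.24 on the senescent arrays. SLC41A1, the sodium-magnesium exchanger of the plasma membrane, read 6.81, 6.70, 6.88, 6.80 and 7.36 on the proliferating arrays and 8.41, 8.23, 8.10, 8.06 and 8.02 on the senescent arrays. In both genes the lowest senescent array lay above the highest proliferating one. Their differences were 1.40 (SE 0.14, 2.63-fold, limma's adjusted p = 1.0e-05) and 1.25 (SE 0.13, 2.39-fold, limma's adjusted p = 9.5e-06). SLC41A3 went from 10.04 ± 0.09 to 10.95 ± 0.20, by 0.92 (SE 0.09, limma's adjusted p = 9.1e-06). The other tested probe sets of SLC41A2 and SLC41A3 rose too, by 1.26, 1.59 and 0.79, while SLC41A1 had a single tested probe set.

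The sodium-calcium exchangers, which extrude calcium in exchange for sodium, moved in opposite directions. SLC8A3 (NCX3), best known from brain and muscle, read 2.70, 2.68, 2.74, 3.00 and 2.64 on the proliferating arrays and 5.73, 5.74, 5.69, 5.96 and 5.39 on the senescent arrays. It was at background in proliferating cells, where 4 of 5 arrays passed the filter value, and clearly higher in senescent cells. The difference was 2.95 (SE 0.10, 7.73-fold, limma's adjusted p = 4.1e-09), from a single tested probe set, and its size depends on the background correction. SLC8A1 (NCX1), the widely expressed member, read 10.21, 10.49, 10.17, 10.32 and 10.33 on the proliferating arrays and 9.65, 9.59, 9.40, 9.52 and 9.23 on the senescent arrays. SLC8A1 fell by 0.83 (SE 0.09, limma's adjusted p = 1.6e-05), and 8 of its 9 tested probe sets fell, by 0.51 to 1.10. SLC24A1 (NCKX1), the potassium-dependent exchanger known from rod photoreceptors, read 8.23, 8.31, 8.57, 8.23 and 8.40 on the proliferating arrays and 7.21, 7.39, 7.95, 7.15 and 7.24 on the senescent arrays. It was lower on every senescent array and fell by 0.96 (SE 0.15, limma's adjusted p = 2.1e-04), while on its dimmer probe set the difference was -0.12, not past the threshold, and the mean of both was -0.54.

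Carriers of bicarbonate and related acid-base ions went both ways. Of 10 SLC4A genes 7 were tested, 3 rose and 1 fell. SLC4A11, a member that conducts protons or hydroxide rather than bicarbonate and is best known from the corneal endothelium, read 4.58, 4.53, 5.43, 4.21 and 4.72 on the proliferating arrays and 7.83, 7.78, 7.67, 7.93 and 7.73 on the senescent arrays. Proliferating values varied more than senescent ones, yet none overlapped. The difference was 3.10 (SE 0.19, 8.55-fold, limma's adjusted p = 2.1e-07), from a single tested probe set. Proliferating values other than that of array 3 lay below the 60th percentile of their arrays (4.73 to 4.77). The size of this difference therefore depends in part on the background correction.

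SLC4A4 (NBCe1), the electrogenic sodium-bicarbonate cotransporter, read 10.54, 10.71, 10.56, 10.53 and 10.70 on the proliferating arrays and 12.22, 12.29, 12.18, 12.06 and 11.99 on the senescent arrays. The groups were tight and apart, by 1.54 (SE 0.07, 2.91-fold, limma's adjusted p = 1.8e-08). A further 3 of its 5 tested probe sets rose, by 1.76 to 1.99, and the last differed by 0.32 and did not pass. SLC4A2 (AE2), the chloride-bicarbonate exchanger, went from 8.31 ± 0.18 to 8.84 ± 0.08, by 0.54 (SE 0.09, limma's adjusted p = 2.9e-04). SLC4A5 (NBCe2) fell by 0.53 (SE 0.10, limma's adjusted p = 0.0011).

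SLC4A7 (NBCn1) and SLC4A8, both sodium-coupled bicarbonate carriers, did not pass, with differences of -0.13 (adjusted p = 0.18) and 0.26 (adjusted p = 0.15; limma). SLC4A7 passed with the ACTB covariate (-0.32, adjusted p = 0.027), housekeeping centring (-0.30, adjusted p = 0.019), array weights (-0.22, adjusted p = 0.017), without proliferating 2 (-0.19, adjusted p = 0.043) and with 4 against 4 arrays (-0.20, adjusted p = 0.045; limma throughout). Among sodium-proton exchangers 3 of 5 genes were tested. SLC9A8 (NHE8) of the Golgi rose by 0.28 (SE 0.06, limma's adjusted p = 0.0035). This was 0.11 with housekeeping centring and 0.19 with the ACTB covariate (adjusted p = 0.20 and 0.14, limma). SLC9A9 of endosomes and SLC9A5 had differences of -0.04 and -0.28 that did not pass (adjusted p = 0.62 and 0.17, limma). Both passed with housekeeping centring, at -0.21 and -0.44 (adjusted p = 0.034 and 0.045, limma).

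Among cation-chloride cotransporters, which set cell volume and intracellular chloride, 6 of 8 genes were tested, 4 rose and 1 fell. SLC12A8, a divergent member that has also been described as a carrier of nicotinamide mononucleotide, read 6.24, 6.31, 6.24, 6.24 and 6.38 on the proliferating arrays and 9.32, 8.95, 8.90, 9.26 and 8.87 on the senescent arrays. The proliferating arrays lay within 0.14 of each other, and the senescent arrays were all well above them. The difference was 2.78 (SE 0.10, 6.85-fold, limma's adjusted p = 3.3e-09), from a single tested probe set. SLC12A9, whose substrate is not settled, read 4.81, 5.80, 3.95, 5.20 and 4.33 on the proliferating arrays and 6.47, 7.24, 7.22, 6.79 and 6.71 on the senescent arrays. Its proliferating arrays scattered most of the carriers shown, and the difference of 2.07 (SE 0.32, 4.19-fold, limma's adjusted p = 2.6e-04) was 1.25 as the mean of its probe sets, of which the dimmer one rose by 0.43.

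The direction of chloride flux is known for other members. SLC12A4 (KCC1), which exports potassium and chloride, went from 6.54 ± 0.19 to 7.52 ± 0.08, by 0.98 (SE 0.09, 1.97-fold, limma's adjusted p = 4.0e-06). SLC12A7 (KCC4), which does the same, fell by 0.83 (SE 0.13, limma's adjusted p = 2.9e-04), from 5.95 ± 0.19 to 5.12 ± 0.25. SLC12A2 (NKCC1), which imports sodium, potassium and chloride, rose by 0.44 (SE 0.06, limma's adjusted p = 1.6e-04), and was at 0.28 with housekeeping centring (adjusted p = 0.0012, limma). The kidney cotransporter SLC12A1 was below the 60th percentile on all arrays.

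Both sodium-phosphate cotransporters of the SLC20A family rose by the probe set with the highest mean. SLC20A1 (PiT1) read 11.85, 11.74, 11.87, 11.79 and 11.80 on the proliferating arrays and 13.14, 13.20, 13.03, 13.26 and 13.12 on the senescent arrays. Replicates were within 0.13 and 0.23 of each other in the proliferating and senescent groups, and the difference was 1.34 (SE 0.05, 2.53-fold, limma's adjusted p = 5.9e-09), with 1.47 on its second probe set. SLC20A2 (PiT2) read 8.41, 8.04, 7.98, 7.99 and 7.66 on the proliferating arrays and 9.07, 9.03, 9.14, 9.17 and 8.87 on the senescent arrays on the probe set with the highest mean. It differed by 1.04 (SE 0.12, 2.06-fold, limma's adjusted p = 2.8e-05). Its other 2 tested probe sets fell, by 0.89 (adjusted p = 8.0e-04) and 0.49 (adjusted p = 0.0084; limma over probe sets), and the mean of the 3 was -0.11 and did not pass (adjusted p = 0.30, limma). The direction for SLC20A2 is therefore not settled by these arrays.

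Of 8 genes of the SLC26A family, anion exchangers that include sulfate carriers, 4 were tested, 2 rose and none fell. SLC26A2, the sulfate-chloride exchanger on which sulfation of cartilage proteoglycans depends, read 11.17, 11.12, 11.17, 11.17 and 11.35 on the proliferating arrays and 12.68, 12.66, 12.74, 12.64 and 12.66 on the senescent arrays. The senescent arrays agreed within 0.10. The difference was 1.48 (SE 0.05, 2.79-fold, limma's adjusted p = 2.5e-09), and its other probe sets rose by 1.97 and 2.17. SLC26A11, a sodium-independent sulfate carrier, read 6.95, 7.03, 7.07, 7.04 and 7.45 on the proliferating arrays and 9.52, 9.34, 9.66, 9.26 and 8.90 on the senescent arrays. Again no array of a group reached the other group, with a difference of 2.23 (SE 0.14, 4.69-fold, limma's adjusted p = 3.1e-07). SLC26A11 had a single tested probe set. SLC26A3 and SLC26A4, known from gut and from thyroid and inner ear, were tested but lay below the 60th percentile on all arrays and did not pass. SLC26A1, another sulfate carrier, had no tested probe set and read 1.61 to 2.16.

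**Figure D3:**
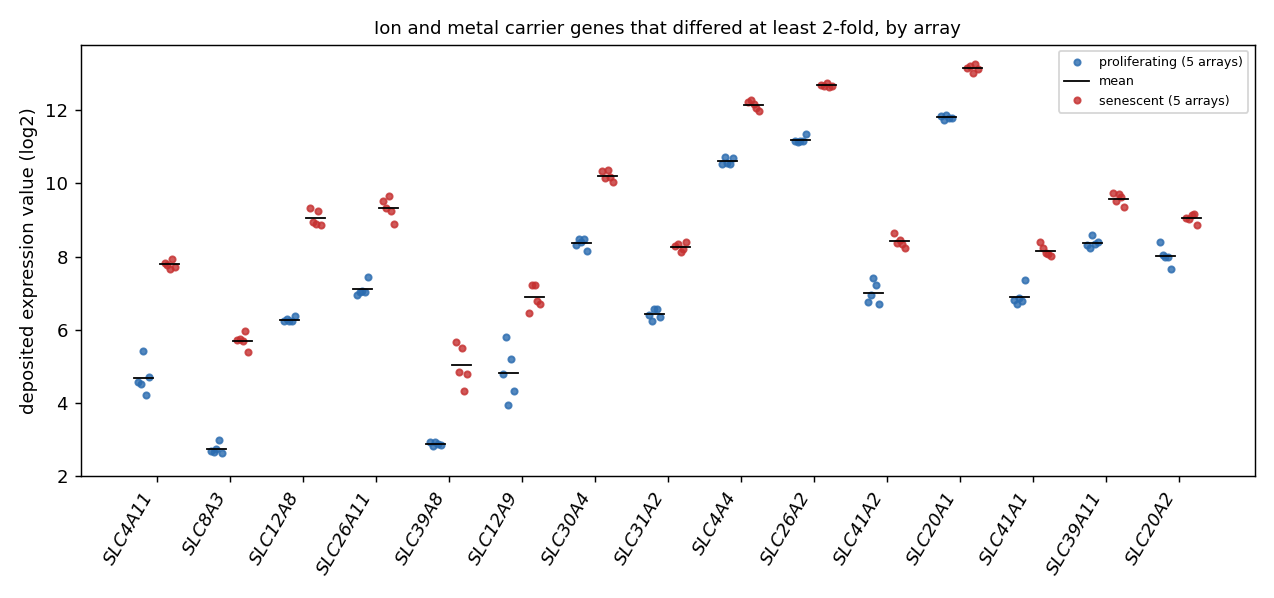
Deposited log2 value (vertical axis) of the 15 carrier genes that differed at least 2-fold, ordered by difference, on 5 proliferating (blue) and 5 senescent (red) arrays, with group means as lines. Senescent values lie above all proliferating values in each gene, and SLC8A3 and SLC39A8 have proliferating values of 3.00 or less. The other 2 tested probe sets of SLC20A2, not drawn here, fell.

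Signal was low for a sizeable part of the group. The 23 genes with no tested probe set never exceeded 2.88, and include the renal phosphate carriers SLC34A1 and SLC34A3, the islet zinc carrier SLC30A8, the intestinal zinc importer SLC39A4 and the erythrocyte anion exchanger SLC4A1. Another 9 tested genes lay below the 60th percentile on all 10 arrays, and none of them was called. Of the 43 with more signal, 30 rose, 5 fell and 8 did not pass. Of the 52 tested genes 50 were above the filter on all 10 arrays. SLC8A3 and SLC24A3 missed it on at least 1.

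Called probe sets of the same gene rarely went opposite ways. Of 180 carrier probe sets 113 were above the filter, and 62 rose and 15 fell, where 26.9% of all 32732 tested probe sets rose and 26.2% fell. Among 29 carrier genes with at least 2 tested probe sets, SLC20A2 alone had called probe sets of opposite direction (3.45%), against 3.79% of all 6669 such genes. These shares are near each other and leave uncalled probe sets aside. Some of those differed in sign, as for SLC30A7 and for SLC4A8 (-0.39 to 0.41). The calls of SLC4A2, SLC4A5, SLC9A8, SLC12A7 and SLC39A7 each rest on a single tested probe set.

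**Figure D4:**
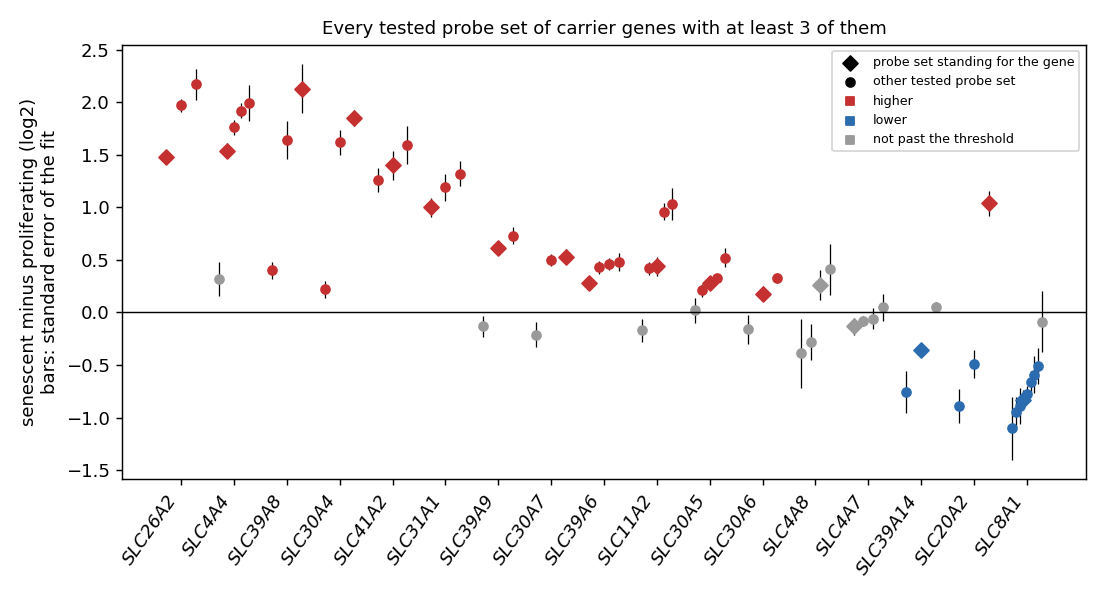
Senescent minus proliferating difference (log2, vertical axis) of every tested probe set of the carrier genes that have at least 3, with standard errors of the fit as bars. Diamonds mark the probe set that stands for the gene, and colour marks the call over all probe sets. SLC8A1 has 8 of 9 probe sets lower, and SLC20A2 has 1 higher and 2 lower.

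Other genes of ion and metal handling were read from 9 lists with 105 tested genes, of which 43 rose and 20 fell. These 63 calls are in total a share near that of all genes, of which 61.3% were called. By direction a larger share rose and a smaller share fell than among all genes, with 31.0% higher and 30.3% lower. The counts of single lists are a description. Among 15 genes of manganese and magnesium handling 11 rose and none fell (median 0.43). NIPAL2 and NIPAL3, relatives of the magnesium carriers NIPA1 and NIPA2, rose by 2.41 and 1.62 (adjusted p = 6.5e-07 and 1.1e-07, limma). Among 9 copper genes 4 rose and 1 fell (median 0.22). The copper pumps ATP7A and ATP7B rose by 1.49 and 1.17 and the cytochrome oxidase assembly factor SCO2 by 1.41. SCO2 was at 0.57 with the ACTB covariate and did not pass (adjusted p = 0.092, limma).

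Iron genes went both ways, with 5 higher and 8 lower of 22 (median -0.04). HEPH, the ferroxidase that works with SLC40A1, fell from 5.93 ± 0.76 to 2.97 ± 0.05, by 2.96, into low signal. The metalloreductase family member STEAP1 fell by 1.46. The endosomal ferrireductase STEAP3 and the duodenal type reductase CYBRD1 rose by 1.27 and 1.17. Of 8 genes of zinc binding and sensing 3 rose and none fell (median 0.23), the most for metallothionein MT1X at 0.41 (adjusted p = 0.0061), a call lost with housekeeping centring (0.25, adjusted p = 0.096; limma).

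Among 5 carbonic anhydrase and proton genes 3 fell and none rose (median -0.50), and the uncalled CA1 and CA3 were dim in both groups. CA12, a membrane-bound carbonic anhydrase, went from 9.10 ± 0.13 to 4.78 ± 0.48. The difference was -4.32 (19.9-fold, limma's adjusted p = 2.9e-08). Its senescent mean lay near the 60th percentile of the arrays (4.64 to 4.77), so this size depends in part on the background correction. Of 17 regulators of cation-chloride and sodium-proton carriers 4 rose and 5 fell (median -0.12). WNK4, a kinase upstream of the SLC12A carriers, fell from 7.00 ± 0.06 to 3.60 ± 0.59, by 3.41, into low signal, and the scaffold NHERF1, dim in both groups, by 1.46. Of 18 phosphate and anion partners 11 rose and 1 fell (median 0.14). ENPP1, which makes pyrophosphate outside the cell, fell by 4.41 (21.3-fold), and the pyrophosphate transport gene ANKH, the lysosomal chloride channel subunit OSTM1 and the endosomal exchanger CLCN3 rose by 1.87, 1.55 (2.46 as the mean of its probe sets) and 1.45. Calcium pumps and uniporter genes had 4 higher and 1 lower of 8 (median 0.12), the lower one being the plasma membrane pump ATP2B1 (-1.25). Of 3 sodium pump genes 1 rose and 1, FXYD5 (-0.93), fell, with a median of 0.07.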

How the data were processed

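Total RNA of IMR90 fibroblasts was biotin-labelled and measured on the Affymetrix array HG-U133 Plus 2.0. The deposited values are log2 values, 1 per probe set and array, and Partek and GCRMA are named, without version or role, per the submitters' processing notes. The settings of both are not given in the sources used, and the log2 scale was read from the value range. Genes were named from the platform annotation, and all 180 carrier probe sets were matched by gene identifier to RefSeq (GRCh38.p14).

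The carriers, gene lists and alternatives were chosen with earlier results of these data known. Senescent minus proliferating means (5 arrays each) were compared in limma 3.58.1 (lmFit, eBayes, two-sided; R 4.3.3) over 12909 genes, with Benjamini-Hochberg adjustment at 0.05. A gene was represented by its probe set with the highest mean among those above the 40th percentile on at least 5 arrays. All members could be named, and in partner lists up to 4 called genes of at least 2-fold, or the 1 furthest. Alternatives were other filters, centring on tested or 22 housekeeping genes, quantile normalisation, a replicate block, trend and robust variance, array weights, other choices of probe set, an ACTB control covariate, leaving out each array, and, added after seeing the data, 4 against 4 arrays without proliferating 2 and senescent 5. On simulated data with the scatter of these arrays (12909 genes, 50 changed per size) 66% of genes changed by 0.5 (log2) were recovered, 92% of those changed by 1, and 100% of those changed by 2 or 4, with 12 of 191 calls false. Far fewer genes were changed there than the 7913 called here, and the adjusted threshold depends on that share. These rates therefore do not describe the comparison of the 2 states. The number of arrays limits the precision, and no scanner files or detection calls were used.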

Additional observations from a re-analysis of the deposited data

Results flagged for a closer look

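Within groups of 5 arrays, a single array stood apart from the others (gap over the range above 0.71, Dixon's 95% value) in 10 of 86 groups examined, where chance gives about 1 in 20. Proliferating 5 was the high one for SLC26A11 (7.45 against 6.95 to 7.07), SLC26A2 (11.35 against 11.12 to 11.17) and SLC41A1 (7.36 against 6.70 to 6.88), and proliferating 4 for SLC8A3 (3.00 against 2.64 to 2.74). Senescent 3 was high for SLC4A8 (8.51 against 7.76 to 7.94) and SLC39A13 (5.51 against 4.91 to 5.08), senescent 4 for SLC39A1 (8.61 against 8.39 to 8.41) and senescent 5 for SLC11A1 (6.10 against 5.52 to 5.68). Senescent 5 was low for SLC41A3 (10.62 against 10.98 to 11.11), and senescent 2 for SLC30A7 (10.12 against 10.19 to 10.20). Leaving out any of these arrays changed the call of none of these 10 genes.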

How the results depend on the processing

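Of the 35 called carrier genes 30 kept direction and call in each of 22 settings that gave them a value, and SLC20A2, SLC30A5, SLC30A6, SLC39A6 and SLC9A8 did not. The number of lower carriers was 11 with housekeeping centring, where higher ones numbered 26. In the other settings it was 5 to 7, with 27 to 30 higher. Leaving out 1 array gave 29 to 30 higher and 5 to 6 lower carriers and 58 to 64 called partner genes (63 with all arrays). SLC20A2 turned to -0.11 with the mean of its probe sets. The replicate block changed no carrier call (30 higher and 5 lower). Deviations of same-numbered arrays correlated by -0.04 to 0.10, so the numbers are not taken to pair the samples. Carriers without a value in a setting (2 called genes without shared probe sets, 1 with the 60th percentile filter) had no probe set left there. Low signal limits the 23 genes below the filter: tested with no filter, their differences were -0.08 to 0.08 and limma called 0 of them (2 at an unadjusted p under 0.05, smallest adjusted p 0.069). It also limits the size of differences for SLC8A3, SLC39A8 and SLC39A13. In part it does so for SLC4A11 and SLC12A9, where some proliferating arrays lay below the 60th percentile. SLC4A5 lay below it on senescent 1 and 2, and SLC9A8 on proliferating 5.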
